A study of Mus musculus with 24 samples.

Results

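The FoxO transcription factor family was followed through its 4 genes, Foxo6, Foxo1, Foxo3 and Foxo4, chosen by gene symbol from the 19938 genes measured in the mouse hippocampus. FoxO proteins are forkhead factors that activate genes of cell cycle arrest, stress resistance, autophagy and metabolism. Insulin and growth factor signalling through PI3K and the kinases AKT and SGK phosphorylates them, after which 14-3-3 proteins hold them out of the nucleus, so much of their control lies in protein modification rather than in RNA level. FoxO6 is the member known for expression in the brain, including hippocampal pyramidal cells, and unlike the other members it stays largely nuclear in the presence of growth factors.

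RNA of the dissected hippocampus was measured on 24 Affymetrix arrays from male mice whose background was a C57BL/6J-129sv mix and whose age was 8 to 9 weeks. Wild type (WT, FoxO6 +/+) and mutant (FoxO6 -/-, labelled null, with no tissue restriction named) mice were compared in each of the states basal and after learning, with 6 arrays in each of the 4 groups. Basal mice lived alone for at least 3 days. Learning mice were handled every day, met the empty arena for 10 min on the day before (24 h), then had 10 min with a pair of identical objects, and tissue was taken 60 min later. An acclimatization of 60 min is also recorded for learning mice only, and living alone for basal mice only. Task, handling, acclimatization, housing and cohort therefore cannot be told apart in any difference between learning and basal. Levels are RMA values on the log2 scale of each gene's own probe set, and levels of different genes cannot be compared. The labels call arrays of a group biological replicates without saying that each is a separate animal, so the p-values reflect the spread among these samples, which may be technical.

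Markers of the tissue were read on every array. The mean level of 9 measured markers of CA1 and other pyramidal cells lay between 9.56 and 9.98 over all arrays, and that of 12 markers of dentate granule cells between 8.10 and 8.42, which as levels of different probe sets give no measure of purity. Of 23 activity-induced genes, 18 were called higher and 1 lower after learning (all genes, 31.7% and 23.1%), with Fos 1.66 higher (log2). Choroid plexus tissue differed between arrays: among the WT basal samples Ttr, its most abundant product, read 11.7, 12.1 and 11.8 for numbers 1 to 3 but 8.80, 9.64 and 9.17 for numbers 4 to 6, and the mutant basal arrays spanned 11.01 to 11.99. FoxO gene differences whose call or sign changed without WT basal arrays 4, 5 and 6 are therefore given both ways. Others moved without a change of call or sign, and not all of these are given both ways. After learning in WT, Foxo6 went from −0.16 to −0.21 and Foxo3 from 0.05 to 0.13. The basal genotype difference of Foxo3 went from 0.04 to 0.12.

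Each FoxO gene had 1 probe set. In the reference annotation (GRCm38.p6) Foxo6 (probe set 10515939) spans chr4:120267078-120287261, Foxo1 (10491962) chr3:52268337-52350109, Foxo3 (10368888) chr10:42181845-42276695 and Foxo4 (10601091) chrX:101254261-101260873. The sources used here do not give where the probes fall among exons or which part of Foxo6 the mutation removes. RefSeq start regions (GRCm38.p6) were matched for 2 of the 4 genes, and are shown because Foxo1 was called between learning and basal while Foxo3 was not. Both are read on the gene's own strand, Foxo1 at chr3:52268087-52268386 (plus) and Foxo3 at chr10:42276646-42276945 (minus). Capitals mark GC boxes (GGGCGG on either strand, bound by Sp1-type factors) and CCAAT boxes (CCAAT on either strand, bound by NF-Y).
Foxo1: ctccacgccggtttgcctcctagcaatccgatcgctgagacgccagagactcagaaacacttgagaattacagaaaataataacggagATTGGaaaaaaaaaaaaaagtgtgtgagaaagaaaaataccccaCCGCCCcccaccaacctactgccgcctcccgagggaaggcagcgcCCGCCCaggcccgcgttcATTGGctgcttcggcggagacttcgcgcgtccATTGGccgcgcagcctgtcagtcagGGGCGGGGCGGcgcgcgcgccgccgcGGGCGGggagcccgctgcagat
Foxo3: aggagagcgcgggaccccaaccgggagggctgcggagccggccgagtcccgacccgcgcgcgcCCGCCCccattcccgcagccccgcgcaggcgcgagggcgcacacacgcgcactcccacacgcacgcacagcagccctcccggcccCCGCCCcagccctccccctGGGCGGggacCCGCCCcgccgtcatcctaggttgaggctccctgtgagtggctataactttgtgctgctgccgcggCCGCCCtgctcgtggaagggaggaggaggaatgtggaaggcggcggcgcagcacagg

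Both windows were rich in G and C, at 61.3% for Foxo1 and 75% for Foxo3, against a median of 52.7% over 32851 RefSeq windows of the same length. Each held 5 GC boxes, 2 of which overlap by their ends in Foxo1, and 35.7% of all windows hold at least 1. The Foxo1 window also held 3 CCAAT boxes and the Foxo3 window 0, with 37.4% of windows holding at least 1. Neither window held the FoxO binding site GTAAACA (3.65% of windows), the cyclic AMP response element TGACGTCA (1.79%), an AP-1 site TGANTCA (7.81%) or the E-box CACGTG (7.15%). The shorter TGACG, which is also part of the cyclic AMP element, was found 1 time in Foxo3 and 0 times in Foxo1 (20.8% of windows). These are matches of letters, and binding was not measured.

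Foxo6, the gene under mutation, was the FoxO gene that differed between genotypes. In WT basal arrays it ran from 6.78 through a median of 7.04 to 7.30, and in mutant basal arrays from 6.18 through 6.26 to 6.59. After learning the WT arrays ran from 6.62 through 6.90 to 7.04 and the mutant arrays from 5.98 through 6.28 to 6.38. The genotypes did not overlap in either state, as was true of 0.186% of all genes in the lower direction at basal and 0.181% after learning. Mutant basal array 6 (6.59) stood above the other mutant arrays and reached close to the lowest WT value, 6.62 in WT learning array 5.

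Averaged over both states Foxo6 was lower by 0.68 in the mutant (difference −0.68, 95% interval −0.81 to −0.55, 62.5% of WT, limma adjusted p = 1.19e-07). All 12 mutant arrays lay below every WT array of their state, and the exact permutation test within states gave p = 2.34e-06, the smallest that 853776 assignments allow. Of all genes 0.391% were called in this comparison (adjusted p under 0.05), and Foxo6 ranked 3 by p. The genotype difference was −0.73 at basal (limma adjusted p = 0.000128; 0.1% of genes called) and −0.63 after learning (adjusted p = 0.000833; 0.0752% called), with a change between states of 0.10 (interval −0.16 to 0.36, limma adjusted p = 1.00). The mutant means of Foxo6 were 6.30 at basal and 6.24 after learning, where medians of whole arrays were 6.16 to 6.30. How much of the remaining signal is Foxo6 RNA and how much is background was not tested. That limit also holds for the change of Foxo6 after learning in the mutant.

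**Figure D1:**
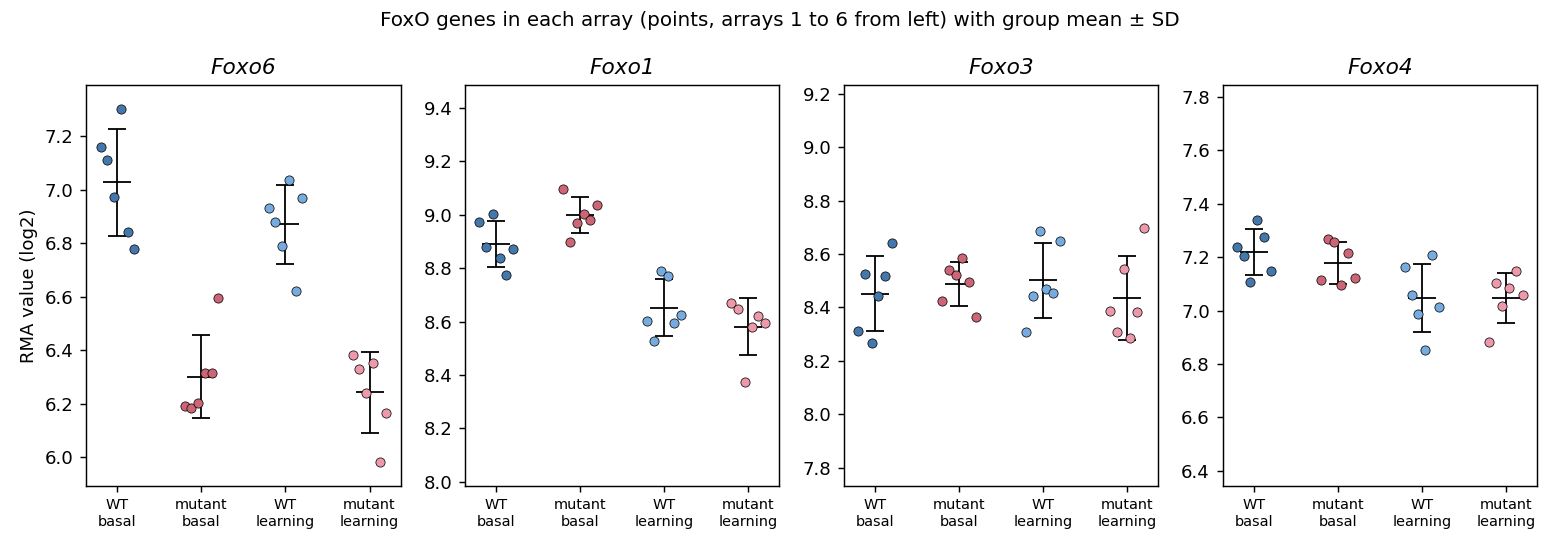
RMA values (log2, vertical axis) of the 4 FoxO genes in each of the 24 arrays, by group (horizontal axis), with points for arrays 1 to 6 and bars for the mean ± SD of 6 arrays. Each panel covers the same span on its own range; Foxo6 separates by genotype, Foxo1 separates by state apart from 1 WT learning array that lies within the WT basal range, and the groups of Foxo3 overlap.

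In the task comparison Foxo6 itself was not called. Learning minus basal was −0.16 in WT (interval −0.34 to 0.03, limma adjusted p = 0.169) and −0.06 in the mutant (−0.24 to 0.13, adjusted p = 0.652). Averaged over genotypes it was −0.11 (−0.24 to 0.02, adjusted p = 0.157; exact permutation test within genotypes, p = 0.121). In falling order the group means of WT were 7.03 ± 0.20 at basal and 6.87 ± 0.15 after learning (SD, n = 6). The mutant means followed, 6.30 ± 0.16 at basal and 6.24 ± 0.15 after learning. Arrays of WT learning and mutant basal did not overlap, while the states within each genotype did. WT learning and mutant basal differ in both genotype and state, and the share of all genes without overlap between them was not computed.

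Foxo1, a FoxO factor that restrains growth and directs gluconeogenesis in liver and quiescence in vessels, was the family member with the clearest change after the task. In WT it ran from 8.78 through a median of 8.88 to 9.00 at basal and from 8.53 through 8.61 to 8.79 after learning. In the mutant it ran from 8.90 through 8.99 to 9.10 at basal and from 8.37 through 8.61 to 8.67 after learning. The mutant states did not overlap, as was true in the lower direction of 11.8% of all genes. In WT 5 of 6 learning arrays lay below every basal array, and the exception was array 3 at 8.79.

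Over both genotypes Foxo1 fell by 0.33 after learning (−0.33, SE 0.0378, interval −0.40 to −0.25, 79.7% of basal, limma adjusted p = 1.18e-08). All 12 learning arrays lay below the basal mean of their genotype and 11 of the 12 below every basal array of it (exact permutation test within genotypes, p = 4.69e-06). A majority of genes moved in this comparison, 54.8% being called and 23.1% called lower, and Foxo1 ranked 2653 of 19938 by p. The fall was −0.24 in WT (84.8% of basal, limma adjusted p = 0.000518; 43.3% of genes called) and −0.42 in the mutant (74.9%, adjusted p = 1.74e-07; 41.3% called).

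The larger fall of Foxo1 in the mutant was not a called difference. The interaction, mutant change minus WT change, was −0.18 (interval −0.33 to −0.02, unadjusted p = 0.0250 and limma adjusted p = 1.00). For the interaction 0% of genes were called by limma (0 genes), with 510 at an unadjusted p under 0.05, and 0 genes were called without the variance trend. Behind the −0.18 lie a basal mutant mean above WT (9.00 ± 0.067 against 8.89 ± 0.085, SD, n = 6 each) and a learning mutant mean below it (8.58 ± 0.11 against 8.65 ± 0.11). The genotype differences were 0.11 at basal (interval −0.0015 to 0.22, limma adjusted p = 1.00; exact permutation test, p = 0.0368 without adjustment among 24 such tests) and −0.07 after learning (−0.18 to 0.04, adjusted p = 0.799; exact p = 0.275).

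The basal genotype difference of Foxo1 was smaller without the WT basal arrays of low Ttr. Among the WT basal samples Foxo1 read 8.97, 8.88 and 9.00 for numbers 1 to 3 but 8.84, 8.78 and 8.87 for numbers 4 to 6. Without arrays 4, 5 and 6 the basal genotype difference was 0.05 in place of 0.11 and the interaction −0.12 in place of −0.18. The fall of Foxo1 after learning in WT was −0.30 without them (−0.24 with them) and was called both ways. In the mutant, whose Ttr also ran lower after learning (8.59 to 11.65, compared with 11.01 to 11.99 at basal), the fall was −0.42, and −0.39 with the mean of 15 choroid plexus markers as a covariate. With that covariate the basal genotype difference was 0.09, the interaction −0.17 and the fall in WT −0.22. After learning 9 of those 15 markers were called lower and 0 higher (60% and 0%, against 23.1% and 31.7% of all genes).

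Foxo1 is also prominent in vascular cells, and the sample holds vessels. Of 13 measured endothelial and mural cell markers, 6 were called lower and 3 higher after learning (46.2% and 23.1%, against 23.1% and 31.7% of all genes; median −0.10). The lowest was Cldn5, a tight junction gene, at −0.56, and among the higher were Rgs5, a pericyte gene, at 0.37 and Abcb1a, an efflux pump of brain vessels, at 0.23. The mean level of the list was 8.02 to 8.11 at basal and 7.95 to 8.17 after learning in WT, and 8.07 to 8.22 and 7.85 to 8.11 in the mutant. The part of these cells in the Foxo1 result was not tested, and in whole tissue fewer cells of a type and less RNA per cell cannot be told apart.

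Foxo4, an X-linked FoxO gene, showed a smaller change in the same direction. In WT it ran from 7.11 through a median of 7.22 to 7.34 at basal and from 6.85 through 7.04 to 7.21 after learning. In the mutant it ran from 7.09 through 7.17 to 7.27 at basal and from 6.88 through 7.07 to 7.15 after learning. The states overlapped in both genotypes, with 4 of 6 learning arrays below every basal array in each.

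Averaged over genotypes Foxo4 fell by 0.15 after learning (−0.15, SE 0.0440, interval −0.24 to −0.06, 90.1% of basal, limma adjusted p = 0.00442), with all 12 learning arrays below the basal mean of their genotype (exact permutation test within genotypes, p = 0.000789). Of all genes 54.8% were called in this comparison and 23.1% called lower, and Foxo4 ranked 8182 of 19938 by p. In the comparison within WT 43.3% of genes were called, and Foxo4 ranked 7703. The pooled comparison was called whichever array was left out, with limma adjusted p up to 0.0100. Without WT basal arrays 4, 5 and 6 the pooled difference was −0.13 (limma adjusted p = 0.0284). Within WT alone the difference was −0.17 (limma adjusted p = 0.0258), which was no longer called without WT basal array 4 (adjusted p = 0.0697) or 5 (0.0545), without WT learning array 3 (0.0539) or 4 (0.0826), or without WT basal arrays 4, 5 and 6 together (−0.14, adjusted p = 0.183). Within the mutant it was −0.13 (adjusted p = 0.0952), and the interaction was 0.04 (−0.14 to 0.22, adjusted p = 1.00). The genotypes differed by −0.04 at basal (−0.17 to 0.09) and by 0.00077 after learning (−0.13 to 0.13).

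Foxo3, which drives autophagy and cell death genes in neurons and other cells, was not called in any of the 7 comparisons. It ran from 8.27 through a median of 8.48 to 8.64 in WT basal arrays and from 8.36 through 8.51 to 8.59 in mutant basal arrays. After learning it ran from 8.31 through 8.46 to 8.68 in WT and from 8.29 through 8.38 to 8.70 in the mutant. All 4 groups overlapped one another. Learning minus basal averaged over genotypes was −0.0020 (interval −0.11 to 0.10, limma adjusted p = 0.977; exact permutation test, p = 0.971), and mutant minus WT averaged over states was −0.02 (−0.12 to 0.09, adjusted p = 0.957; exact p = 0.782).

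Set side by side, 2 of the 4 FoxO genes, Foxo1 and Foxo4, were called lower after learning, where 23.1% of all genes were called lower and 31.7% higher. The median of the 4 differences was −0.13, and that of all genes 0.03. Between genotypes, over both states, 1 of the 4 was called, where 0.391% of all genes were. It was Foxo6, the gene under mutation. For the other members the intervals of that difference, averaged over states, were −0.06 to 0.10 for Foxo1, −0.12 to 0.09 for Foxo3 and −0.11 to 0.07 for Foxo4.

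**Figure D2:**
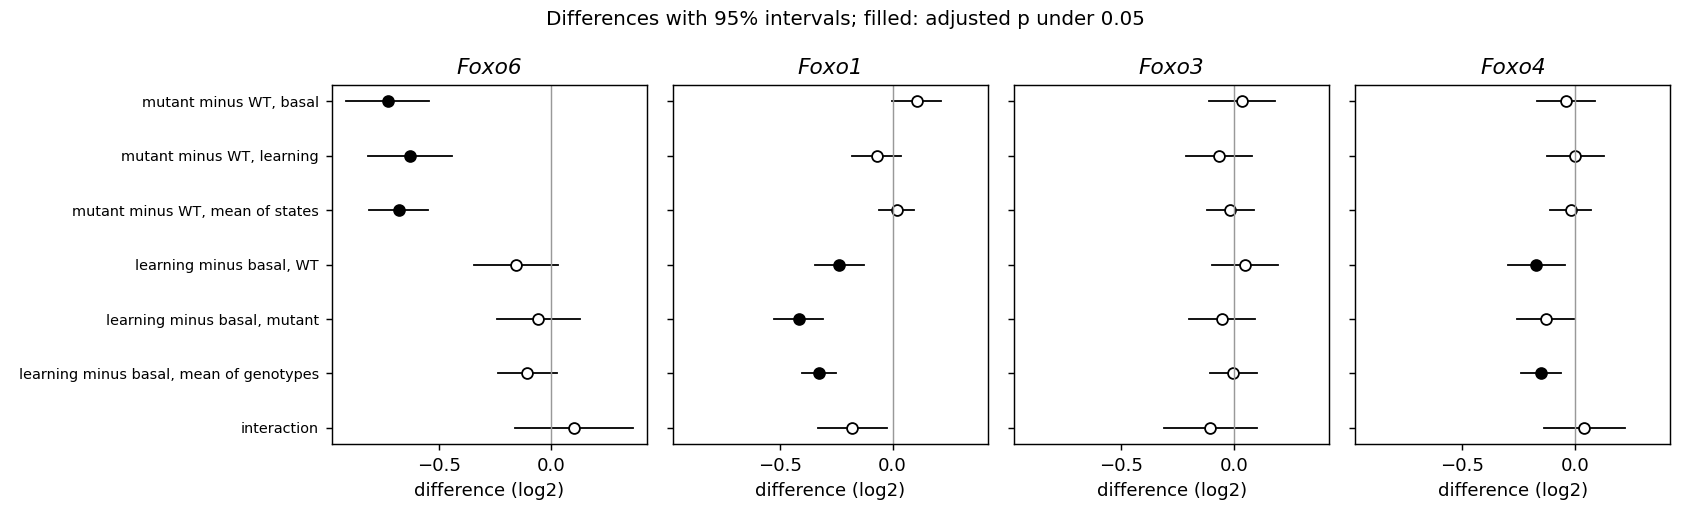
Differences on the log2 scale (horizontal axis) with 95% intervals for the 4 FoxO genes in the 7 comparisons (vertical axis), from limma over 24 arrays, filled where the adjusted p was under 0.05. Filled points are the genotype comparisons of Foxo6 (−0.73, −0.63 and −0.68), the task comparisons of Foxo1 (−0.24, −0.42 and −0.33) and those of Foxo4 in WT (−0.17) and over both genotypes (−0.15).

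Among arrays of the same group the FoxO genes did not rise and fall together. After each gene was centred on its group mean, the 6 pairs of members had Pearson r from −0.51 to 0.17 over 24 arrays. Foxo1 and Foxo4 had the r of −0.51 (permutation within groups, p = 0.0264, 0.158 adjusted over the 6 pairs; rho = −0.58, p = 0.00838, adjusted 0.0503), and −0.63 without the 2 arrays farthest from the median of Foxo1. Within groups r was −0.63 in WT basal, −0.81 in mutant basal, −0.70 in WT learning and −0.0048 in mutant learning arrays. Mutant learning array 3 stood apart in Foxo1 (−0.21 from its group mean, and −0.03 in Foxo4). The r of that group without it was not computed. Foxo1 with Foxo4 had r of −0.56 with each array centred on its median (permutation within groups, adjusted p = 0.0818). After a second quantile normalization r was −0.69 (adjusted p = 0.00774), so the sign held while the call depended on scaling. The other 5 pairs had adjusted p from 0.415 to 0.589 for r, and Foxo6 with Foxo1 was the pair of positive r (0.17).

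**Figure D3:**
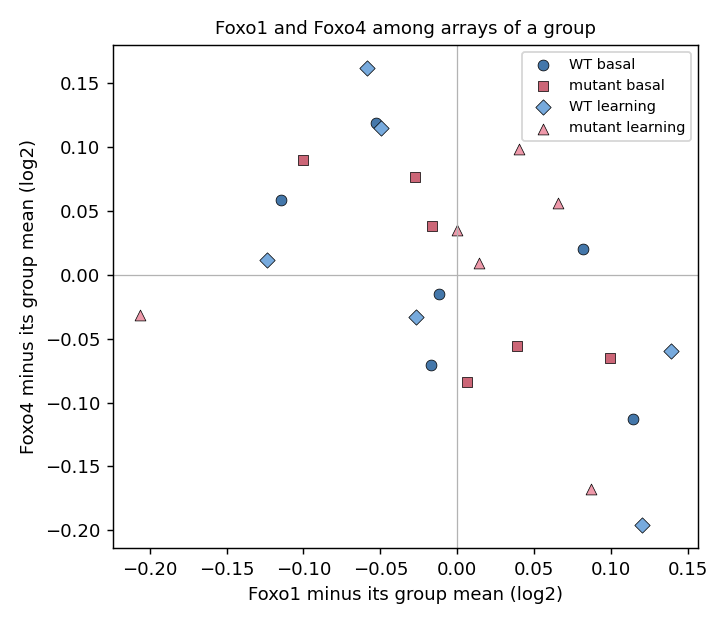
Foxo4 against Foxo1 in 24 arrays, each as the difference from its group mean (log2 on both axes), with a symbol for each group of 6. Arrays high in Foxo1 were mostly low in Foxo4 in the 2 basal groups and in WT learning. In mutant learning arrays r was −0.0048, with array 3 far below its group mean in Foxo1 (−0.21) and near it in Foxo4 (−0.03).

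Genes whose pattern lay closest to a FoxO gene were ranked by the root mean square difference of centred log2 values over the 24 arrays. Since they were picked for likeness over these arrays, that they differ as the FoxO gene does is fixed by the choice, and their differences are a description. Nearest to Foxo1, whose own values spread by 0.19 around their mean, were Ubap2 (0.0725), Slc4a3, an anion exchanger (0.0802), Mtor, a growth kinase (0.0804), Slc2a8, a glucose transporter (0.0834), and Ctnnd2, a catenin of neurons (0.0853). Their differences after learning were −0.31 to −0.36. Nearest to Foxo6, whose spread was 0.38, were Rasl10a, a Ras-like gene (0.263), Plagl1, an imprinted zinc finger factor (0.263), Vgll3, a transcription cofactor (0.264), C1ql2, a marker of dentate granule cells (0.265), and Laptm5, a lysosomal membrane protein (0.270). Their genotype differences over both states were −0.27 to −0.55. The distances of these 5 were a large part of the spread of Foxo6 itself, so the likeness is loose. Laptm5 lies on chromosome 4 with Foxo6, and the others lie on chromosomes 11, 10, 16 and 1. Of the 12 dentate granule markers, 4 were called lower in the mutant over both states and 0 higher (all genes, 0.216% and 0.176%). C1ql2, picked above for its likeness to Foxo6, is 1 of those 4, so the count is partly fixed by the choice. Of 9 measured markers of CA1 and other pyramidal cells, 1 was called lower and 0 higher (11.1% and 0%, median 0.0040). The part of either cell type in the Foxo6 result was not tested.

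For Foxo4 (spread 0.12) the nearest were Cyb5d2 (0.0687), Cdc37, a kinase chaperone (0.0694), and Prkcsh, a glucosidase subunit (0.0697). For Foxo3 (spread 0.12) they were Prdm6 (0.0909), Acsm3 (0.0973) and Sh3kbp1 (0.105). The distances of the Foxo3 neighbours were also a large part of the spread of Foxo3 itself.

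**Figure D4:**
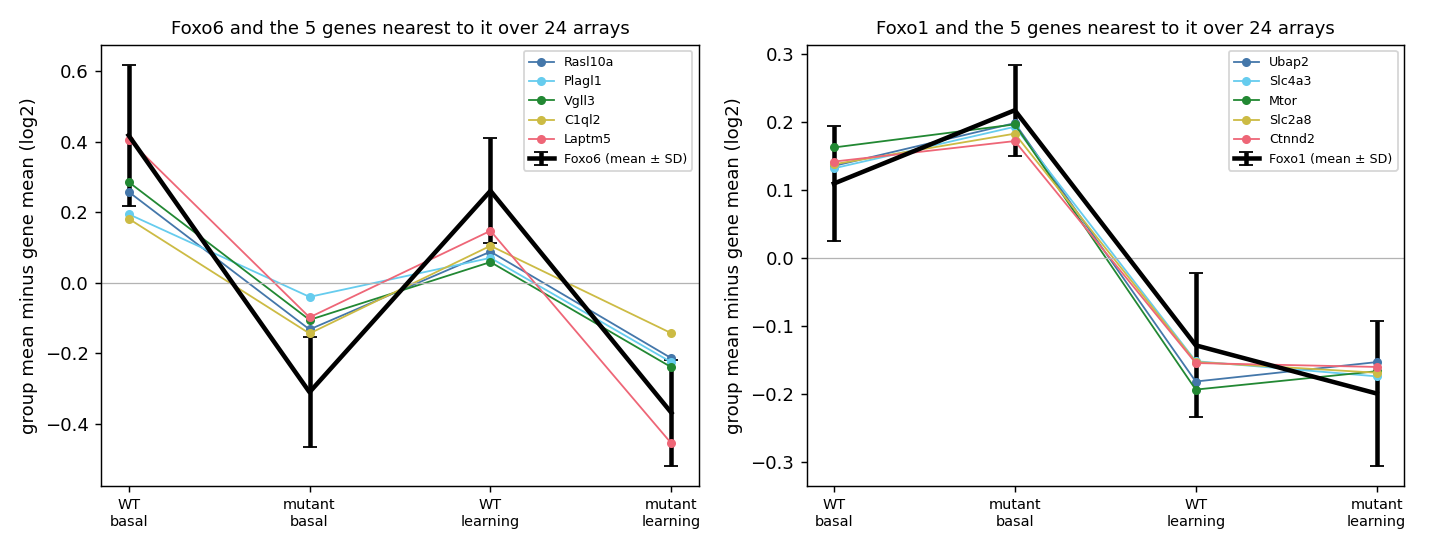
Group means minus each gene's own mean (log2, vertical axis) in the 4 groups (horizontal axis) for Foxo6 (left) and Foxo1 (right), black with the SD of 6 arrays, and the 5 nearest genes of each in colour. The neighbours, picked for this likeness, are lower in the mutant groups with a smaller swing than Foxo6, and lower after learning with Foxo1.

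Other forkhead genes gave the family a frame. Of 39 measured, 11 were called lower and 2 higher after learning over both genotypes (28.2% and 5.13%, against 23.1% and 31.7% of all genes; median −0.01, against 0.03). The share called lower was near that of all genes, and the share called higher was below it. The lower ones included Foxp4, with basal means of 7.53 in each genotype and learning means of 6.99 in WT and 6.96 in the mutant (−0.55, limma adjusted p = 4.59e-12), Foxj2 (−0.42), Foxk1, a repressor of autophagy genes (−0.41), and Foxp1 (−0.28). The higher ones were Foxn3 (0.33, adjusted p = 2.14e-07) and Foxc2, a vascular and mesenchymal factor (0.19, adjusted p = 0.00137). The group means of Foxc2 were low, 5.66 to 5.95, where medians of whole arrays were 6.16 to 6.30. With only genes above the median level, 1 other forkhead gene was called higher and 7 lower. The fall of Foxo1 lay between those of Foxk1 and Foxp1.

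Genes of the signalling that acts on FoxO proteins were called in both directions after the task. Of 19 measured genes of insulin and PI3K-AKT input, 6 were called higher and 10 lower over both genotypes (31.6% and 52.6%, against 31.7% and 23.1% of all genes; median −0.21). The share called higher was that of all genes. Sgk1, a kinase that phosphorylates FoxO proteins, rose from 8.65 to 9.53 in WT and from 8.71 to 9.44 in the mutant (means of 6), 0.80 over both (174% of basal, limma adjusted p = 1.65e-14). Insr, the insulin receptor and itself a known FoxO target, rose by 0.48 (adjusted p = 1.33e-10), and the PI3K catalytic subunit Pik3ca (0.26) and the kinase Sgk3 (0.26) rose too. Lower were Ppp2r1a, the scaffold of phosphatase PP2A (−0.64), the PI3K regulatory subunit Pik3r2 (−0.58), the lipid phosphatase Inppl1 (−0.46) and the kinase Akt1 (−0.44, adjusted p = 7.78e-12).

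Of 33 measured enzymes and partners that modify or bind FoxO proteins, 11 were called higher and 12 lower (33.3% and 36.4%, against 31.7% and 23.1% of all genes; median −0.0065). The share called higher was near that of all genes. The 14-3-3 genes went both ways, with Ywhaq higher (0.46) and Ywhae (−0.51) and Ywhah (−0.18) lower. The ubiquitin ligase Mdm2 (0.30), the sugar transferase Ogt (0.28) and the kinase Mapk8 (0.22) rose, and the acetyltransferases Crebbp (−0.44) and Ep300 (−0.38) fell.

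Known FoxO targets were more often called higher than lower after learning, 21 against 7 of 41 measured (51.2% and 17.1%, against 31.7% and 23.1% of all genes; median 0.10 against 0.03). Bnip3, a mitophagy receptor, rose by 0.89 (186% of basal, limma adjusted p = 1.25e-14), Gadd45a, a growth arrest gene, by 0.74, the cell cycle inhibitor Cdkn2d by 0.51 and the autophagy gene Becn1 by 0.44. The coregulator Cited2 (−0.41), the atrophy ubiquitin ligase Fbxo32 (−0.41) and the autophagy kinases Ulk1 (−0.35) and Ulk2 (−0.23) fell. The list also holds Foxo1, Insr, Irs2 and Ppargc1a. Insr and Irs2 are in the input list as well, and Ppargc1a is in the list of modifiers and partners. Many genes of the target list answer to other factors, so its counts do not measure FoxO activity.

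Between genotypes, over both states, 0 of 19 input genes, 0 of 33 modifiers and partners, 0 of 41 targets and 0 of 39 other forkhead genes were called by limma, where 0.391% of all genes were. Closest among the targets were Txnip, an inhibitor of thioredoxin, at −0.24 (84.7% of WT, unadjusted p = 0.000592, limma adjusted p = 0.106), and Sesn1, a stress-induced inhibitor of mTORC1, at −0.14 (90.6%, adjusted p = 0.172). The Txnip means were 7.84 in WT and 7.68 in the mutant at basal, and 8.50 and 8.18 after learning, and Txnip was called without WT learning array 4 or 5. Among input genes the smallest p were those of Irs1 (0.09, adjusted p = 0.434) and Sgk3 (−0.11, adjusted p = 0.493), and among modifiers those of Nlk (0.08, adjusted p = 0.316) and Sirt2 (0.09, adjusted p = 0.396).

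**Figure D5:**
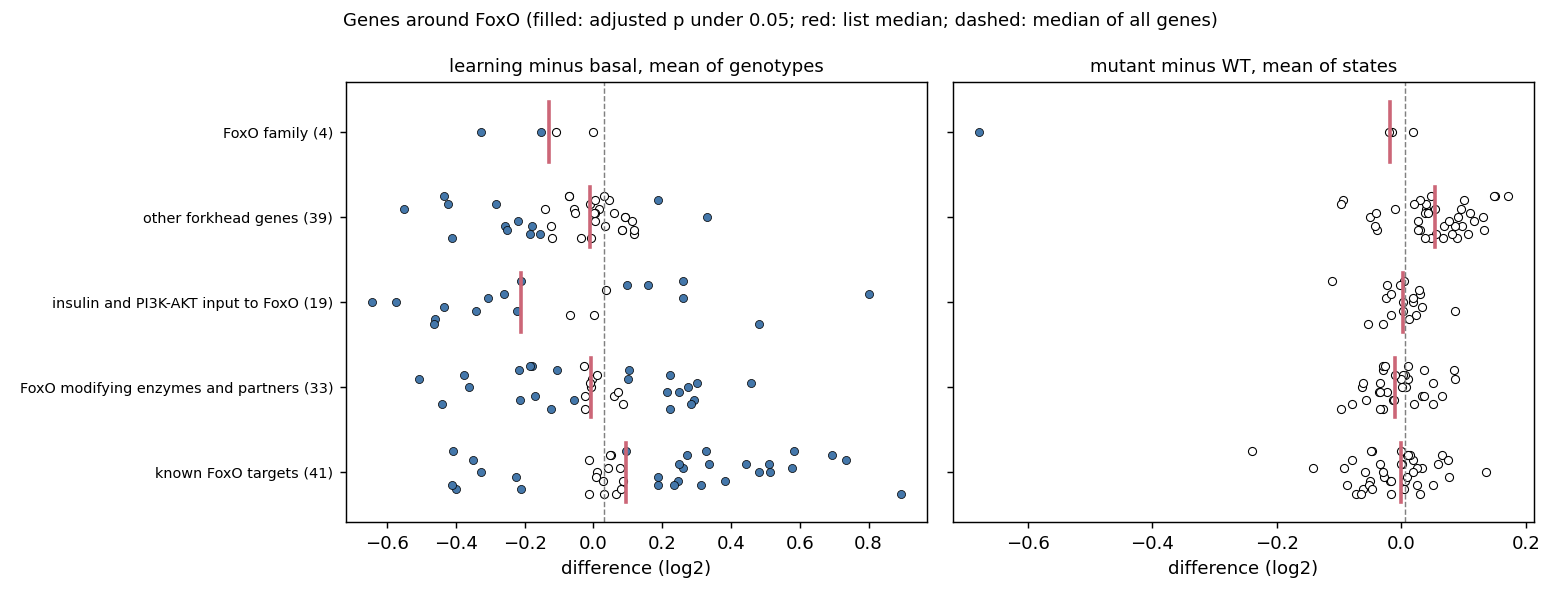
Differences of single genes on the log2 scale (horizontal axis) for the FoxO family, other forkhead genes, FoxO input, FoxO modifiers and FoxO targets (vertical axis, number measured in brackets), learning minus basal on the left and mutant minus WT on the right, with calls filled, list medians in red and the median of all genes dashed. On the left the targets have 21 genes filled higher and 7 lower, the other forkhead genes 2 and 11, and the FoxO family 0 and 2, and on the right the filled point is Foxo6 at −0.68.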

How the data were processed

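RNA of 24 hippocampus samples was hybridised to Affymetrix Mouse Gene 1.0 ST arrays. The deposited values are log2 intensities from RMA, per the submitters' processing notes, which give no version here. Of 35511 probe sets, 21789 carry 1 gene symbol, 1621 several and 12101 none. The probe set of highest mean was taken for each gene with 1 symbol, leaving 19938 genes. Groups came from the labels. Differences were fitted with limma 3.58.1 in R 4.3.3 (all 4 groups in 1 model, variance trend, 20 residual degrees of freedom, Benjamini-Hochberg over all genes, called under 0.05) for 7 comparisons, after a test on simulated data. Exact two-sided permutation tests used all 924 assignments, or 853776 within strata. Correlations used 100000 permutations within groups (scipy 1.17.1). Precision is limited by how many arrays there are.

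The members and lists were chosen with earlier results of these data known. Text names the 4 FoxO genes, the 5 (Foxo6, Foxo1) or 3 (Foxo3, Foxo4) genes nearest in pattern, leaving out clone names, receptors of smell and pseudogenes, and up to 4 called genes of each direction by p from each list, or the 2 of smallest p where none was called. Cldn5, Rgs5, Abcb1a, Fos, Ttr and the levels of marker lists were chosen after their values were seen. Alternatives were the variance trend, array weights, centring, a second quantile normalization, a filter on dim genes, every probe set as its own row, a replicate block, the arrays in the model, a choroid plexus covariate, WT basal arrays 4, 5 and 6 left out, and each array left out.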

Additional observations from a re-analysis of the deposited data

Results flagged for a closer look

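The 16 sets of 6 arrays (4 genes in 4 groups) were searched for an array set apart from its group by a gap large against the group's range, which chance gives in about 1 in 20 sets. In mutant basal arrays Foxo6 was 6.59 in array 6, and the other 5 arrays reached at most 6.32. Without that array the basal genotype difference of Foxo6 was −0.79 in place of −0.73 and was called (limma adjusted p = 2.6e-05). In mutant learning arrays Foxo1 was 8.37 in array 3, and the others were at least 8.58. Without it the fall of Foxo1 after learning in the mutant was −0.38 in place of −0.42 and was called (limma adjusted p = 4.81e-07).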

How the results depend on the processing

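Of 958 values of FoxO gene differences and correlations under other settings, 923 kept their direction and side of the threshold. Many could not change direction. Dropping the variance trend, or an array of a group outside a comparison, leaves the difference as it was, so the count is no measure of stability. The calls of Foxo6 between genotypes and of Foxo1 after learning held under all settings. Foxo4 after learning in WT was −0.14 (limma adjusted p = 0.183) without WT basal arrays 4, 5 and 6, and −0.20 to −0.13 with single arrays left out. Uncalled differences near 0 changed sign. Foxo3 after learning over both genotypes was 0.013 with array weights, 0.0397 without WT basal arrays 4, 5 and 6, and −0.0283 to 0.0175 with single arrays left out. Over both states, without those 3 arrays, the genotype difference was −0.012 for Foxo1 (0.018 with them) and 0.027 for Foxo3 (−0.015 with them). That of Foxo4 was 0.0019 with the choroid plexus covariate. With single arrays left out, Foxo3 between genotypes over both states ran from −0.0414 to 0.0040, Foxo4 between genotypes after learning from −0.0385 to 0.0343, and Foxo6 after learning in the mutant from −0.0865 to 0.00014. The r of Foxo1 with Foxo4 was −0.69 after a second quantile normalization. The causes were not tested.

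Genes called between genotypes at basal numbered 20, and 7 without the trend, 51 with array weights, 11 with only the groups compared and 10 without WT basal arrays 4, 5 and 6. After learning they numbered 15, and 9, 9 and 7 under the first 3 of these. Over both states they numbered 78, and 44 with the covariate and 39 without those arrays. With single arrays left out the counts ran from 6 to 26, 8 to 17 and 55 to 98. Among genes above the median level, 1 other forkhead gene was called higher and 7 lower after learning. Replicate numbers did not pair samples: the median r of 36 same-numbered pairs was −0.011, with 7 over 0.1, and 3 of 24 arrays correlated best with their own number. The replicate block changed no call of a FoxO gene (Foxo1 after learning −0.33, limma adjusted p = 9.83e-08) and gave 14, 11 and 62 genotype calls. The comparisons over both states or genotypes and the interaction use all groups, so a fit of only the groups compared adds nothing there.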

Other observations

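Between genotypes 0 of the other forkhead genes were called by limma. After learning 30 of 39 were higher in the mutant (median 0.10, against 0.00025 over all genes), as were 10004 of all 19938 genes. At basal 23 of 39 were (median 0.012, against 0.011), as were 11485 of all genes. Averaged over both states 32 of 39 were higher in the mutant (median 0.05, against 0.0064 over all genes), as were 10945 of all genes. The 15 choroid plexus markers were all higher in the mutant in each state with 0 called, and their part in these values was not tested. The smallest p were those of Foxp1, which was lower (−0.10, limma adjusted p = 0.373), and Foxl2, which was higher (0.17, adjusted p = 0.396).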
